A study of Rattus norvegicus with 18 samples.

Results

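Metallothionein, heme and iron handling genes were followed in rat lung through every probe set annotated to 1 of 7 gene symbols alone, Mt2A, Hmox1, Blvrb, Ftl1, Fth1, Tfrc and Alas2. Of these genes, 5 had such probe sets, 6 in number, out of 13811 genes with a probe set of their own among 31256 probe sets in the series. Ftl1 and Fth1, the light and heavy chains of the iron store ferritin, had no probe set of their own, as each shared its probe set with other symbols (4 others for Ftl1 and 1 for Fth1), and no value is given for them.

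The lungs came from male Sprague-Dawley rats that were sham-exposed or breathed, nose-only, mainstream smoke of the 2R4F reference cigarette containing 300 or 600 µg/l of total particulate matter (TPM). Sessions lasted 2 h a day on 5 days a week for 13 weeks, and dissection followed the final session by 2, 6 or 20 h. The ages of the rats and the number of rats behind an array are not given in the sources used here. Total RNA was read on 2 Affymetrix array types, A and B, with 1 array of each type for each of 9 conditions, 18 in all. Exposures were therefore compared over 3 recovery times (n = 3 arrays per exposure and type), and a mean ± SD below is taken over recovery times. P-values then measure only the spread between these arrays, whose number limits the precision. The main fit, of exposure and recovery time, assumes the same exposure difference at all times. Any change of that difference with recovery adds to the spread on which its p-values rest.

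Metallothioneins are small cysteine-rich proteins that hold zinc and copper and trap metals such as cadmium. Their genes are switched on by the zinc sensor MTF1 through metal response elements, and also by glucocorticoids. Heme oxygenase 1 (Hmox1) opens the heme ring and releases iron, carbon monoxide and biliverdin, and biliverdin reductases turn biliverdin into bilirubin. The transferrin receptor (Tfrc) brings iron into cells, while ALAS2 starts heme synthesis in developing red cells. Hmox1 and ferritin genes are known targets of NRF2, a factor activated by oxidants and electrophiles.

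The 250 bases before the RefSeq start (assembly GRCr8) were read for 2 members, Mt2A because it moved most and Tfrc because it held matches to the same metal motif and did not pass the test. The table of start regions held 4 of the 7 genes. The Mt2A window lies on the minus strand at chr19:10838709-10838958, and the gene itself is annotated from 10837934 to 10838708 on chromosome 19. The Tfrc window lies on the minus strand at chr11:81690319-81690568. Both are written 5′ to 3′ on the gene's strand, with matches in capitals.

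Mt2A: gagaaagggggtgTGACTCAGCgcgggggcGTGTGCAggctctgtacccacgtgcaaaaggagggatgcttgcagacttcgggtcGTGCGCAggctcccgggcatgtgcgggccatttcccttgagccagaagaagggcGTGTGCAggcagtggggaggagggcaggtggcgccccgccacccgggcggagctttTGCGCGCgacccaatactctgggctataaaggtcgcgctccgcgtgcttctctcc

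Tfrc: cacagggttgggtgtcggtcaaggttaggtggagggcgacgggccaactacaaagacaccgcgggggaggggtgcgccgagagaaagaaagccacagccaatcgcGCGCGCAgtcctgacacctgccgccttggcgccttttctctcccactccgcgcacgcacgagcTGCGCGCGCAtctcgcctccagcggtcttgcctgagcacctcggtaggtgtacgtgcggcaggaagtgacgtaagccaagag

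The metal response element core was searched on both strands as TGCACNC or TGCGCNC, and the antioxidant response element core as TGACNNNGC. The Mt2A window held 4 matches to the metal core, starting 220, 165, 111 and 55 bases before the start. It also held 1 antioxidant match, which begins 237 bases before it and reads TGACTCAGC. The Tfrc window held 3 matches to the metal core, of which the ones starting 82 and 79 bases before the start lie on opposite strands and overlap. It held 0 antioxidant matches. The Blvrb window held 0 matches to either motif. Of 33469 windows of this length in the same table, 20.6% held at least 1 metal match, 1.17% held 3 or more, and 10.1% held an antioxidant match. A match is a description of letters, and no binding was measured. Arrays carry no coordinates, so these positions come from the annotation.

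Some facts of the arrays bear on the values. On type B, the sham array at 2 h deviated together with the 300 µg/l array at 2 h (r = 0.56 across probe sets, each taken as its difference from its mean over 9 arrays, against at most 0.12 in the other 35 pairs), which touches Blvrb, the member on type B. Titles and sources place 4 samples at 20 h under smoke, yet another of their labels reads sham, and values without 20 h are given where they change a call. These 4 are all the smoke arrays at 20 h, so every smoke value at that time rests on the titles. All 8 markers of lung epithelium, surfactant genes among them, were measured, with summed signals of 72650.9 to 83954.8 in sham lungs, 75055.8 to 82332.7 at 300 µg/l and 77003.5 to 81965.5 at 600 µg/l. Sftpc, Sftpa1 and Scgb1a1 made up most of these sums, so dimmer markers weigh little in them. Among the dimmer ones at 600 µg/l, Aqp5 differed from sham by -0.40 and Foxj1 by 0.31 on the log2 scale given below, and neither passed the test.

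The metallothionein gene Mt2A passed the threshold at 600 µg/l and with both smoke levels joined. Hmox1, the gene of the heme-cleaving enzyme, passed at 600 µg/l alone. The other measured members, Blvrb, Tfrc and Alas2, stayed short of the threshold. Hmox1 and Alas2 lay close to it on either side at 600 µg/l (adjusted p = 0.038 and 0.055, limma). At 600 µg/l, Mt2A and Hmox1 rose relative to sham, Alas2 stood lower without passing the test, and Blvrb and both Tfrc probe sets lay nearer to 0. Differences are given as log2(signal + 50), fitted with limma over all 19638 probe sets above a brightness filter, which all 6 member probe sets passed, and p-values were adjusted by the Benjamini-Hochberg method over all of them with a threshold of 0.05. By this test 2 of 6 member probe sets were called at 600 µg/l against sham, beside 0.514% of all probe sets. Signals at 600 µg/l did not overlap those of sham for 4 of 6 member probe sets, beside 14.4% of all.

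**Figure D1:**
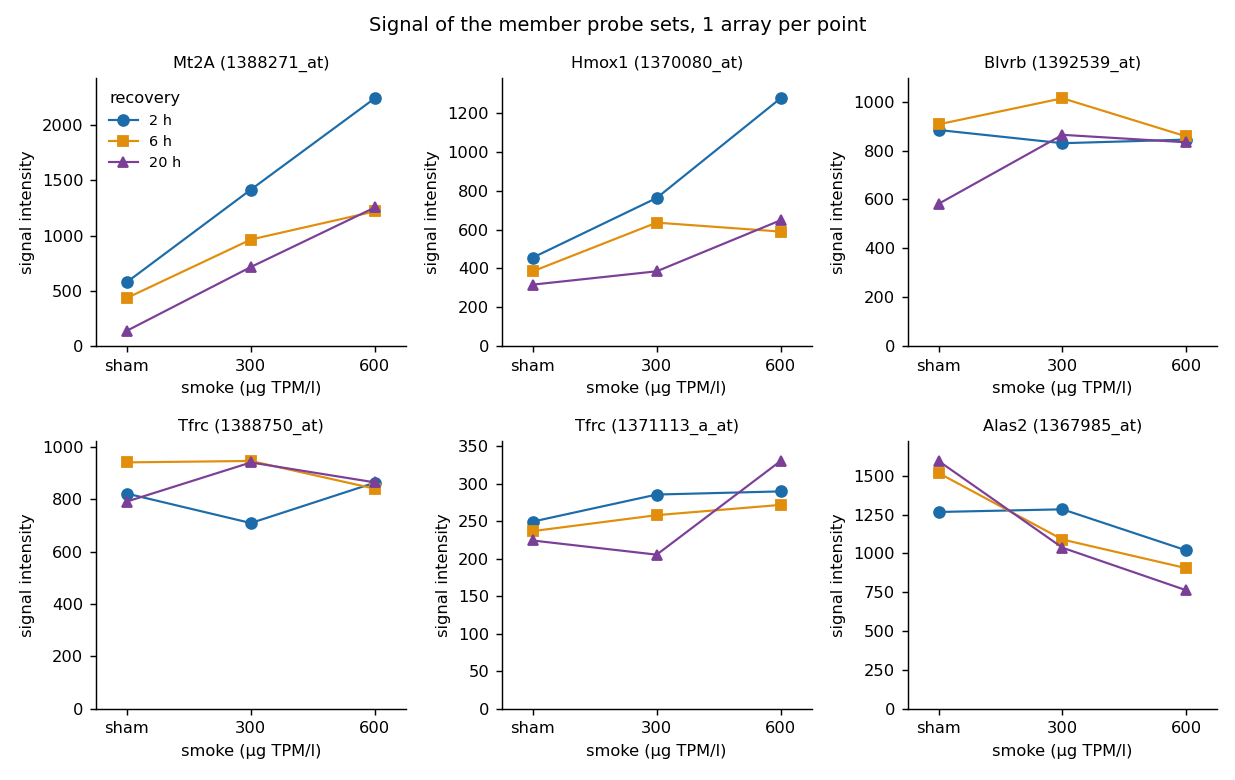
Deposited signal intensity (y axis, linear from 0) of each member probe set in sham lungs and at 300 and 600 µg TPM/l (x axis), with 1 array per point and lines joining arrays of 1 recovery time (2, 6 or 20 h). Mt2A is higher at each step of exposure at all 3 times, Alas2 runs downward at 6 and 20 h, and the brighter Tfrc probe set stays between 709.2 and 946.3.

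Mt2A, the metal-binding member (probe set 1388271_at, type A), showed the widest range. At 2 h its signal was 579.2 in sham lungs, 1416.2 at 300 µg/l and 2242.8 at 600 µg/l. At 6 h it was 435.7 in sham lungs, 964.3 at 300 µg/l and 1218.7 at 600 µg/l. At 20 h it was 138.9 in sham lungs, 715.7 at 300 µg/l and 1254.3 at 600 µg/l. Every smoke array was above every sham array, and the order of exposure held within each recovery time, although the 300 and 600 µg/l arrays overlapped across times.

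The mean Mt2A signal was 1572 ± 581 at 600 µg/l, against 385 ± 225 in sham lungs (SD, n = 3 each). The fitted difference was 2.01 (SE 0.21, adjusted p = 0.0021, limma), or 4.04-fold on the log2(signal + 50) scale, and rank 18 by p among all probe sets. The 300 µg/l mean was 1032 ± 355 and the difference from sham 1.43 (SE 0.21, adjusted p = 0.062). That difference of 2.70-fold did not pass. It passed without the 20 h conditions at 1.14 (adjusted p = 0.032), without the type A sham array at 20 h at 1.09 (adjusted p = 0.032), and without the type A 600 µg/l array at 20 h (adjusted p = 0.028) or at 6 h (adjusted p = 0.042).

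By limma, 0 of 6 member probe sets were called at 300 µg/l, beside 0.0458% of all probe sets. Of all probe sets, 1085 had an unadjusted p under 0.05 in that comparison, and Mt2A, Hmox1 and Alas2 were among them with unadjusted p of 3.9e-05, 0.0083 and 0.021 in the fit across all probe sets. Only Mt2A had 300 µg/l arrays that did not overlap sham, 1 of 6 member probe sets beside 8.44% of all.

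Hmox1 (1370080_at, type A), the heme-cleaving enzyme, rose to a smaller extent and was highest at 2 h. At 2 h its signal was 455.2 in sham lungs, 762.3 at 300 µg/l and 1275.5 at 600 µg/l. At 6 h it was 384.8 in sham lungs, 635.4 at 300 µg/l and 589.3 at 600 µg/l. At 20 h it was 316.3 in sham lungs, 384.9 at 300 µg/l and 647.7 at 600 µg/l. All 600 µg/l arrays lay above all sham arrays, while the 300 µg/l array at 20 h lay within the sham range and the 300 µg/l array at 6 h exceeded the 600 µg/l array of that time.

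Hmox1 averaged 838 ± 380 at 600 µg/l, against 385 ± 69.5 in sham lungs (SD, n = 3 each). The fitted difference was 0.96 (SE 0.16, adjusted p = 0.038, limma), or 1.94-fold. This call was lost when any of 6 type A arrays was left out. Those are the sham arrays at 2 h (0.81, adjusted p = 0.16), 6 h (1.03, adjusted p = 0.11) and 20 h (1.04, adjusted p = 0.078), the 300 µg/l array at 2 h (adjusted p = 0.055) and the 600 µg/l arrays at 2 h (0.78, adjusted p = 0.15) and 20 h (0.90, adjusted p = 0.16). It was also lost without all 2 h conditions (0.74, adjusted p = 0.28) and without all 20 h conditions (0.97, adjusted p = 0.14). The difference of 300 µg/l from sham was 0.53 (SE 0.16, adjusted p = 0.69), 1.44-fold.

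Both smoke levels together gave 1 call of 6 member probe sets against sham, beside 0.407% of all probe sets. It was Mt2A, at 1.72 (SE 0.18, adjusted p = 0.0032), and it was lost without the 2 h conditions (1.81, adjusted p = 0.062). In the same limma fit Hmox1 stood at 0.74 (SE 0.14, adjusted p = 0.066), and it passed once the type A 600 µg/l array at 6 h was left out (0.86, adjusted p = 0.013). Alas2 stood at -0.51 (SE 0.11, adjusted p = 0.12), which passed once the type A sham array at 2 h was left out (-0.70, adjusted p = 0.032). Between 600 and 300 µg/l, 0 of 6 were called beside 0.0204% of all, with 992 probe sets at an unadjusted p under 0.05. Mt2A differed there by 0.58 (SE 0.21) and Hmox1 by 0.43 (SE 0.16), both with adjusted p = 0.94 (limma).

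**Figure D2:**
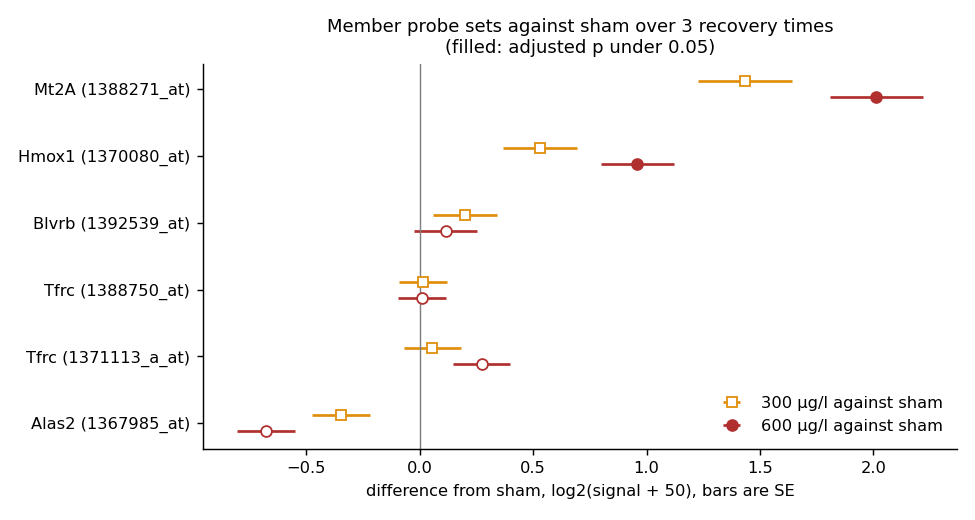
Fitted difference from sham, log2(signal + 50) (x axis), for each member probe set (rows) at 300 µg/l (squares) and 600 µg/l (circles) over 3 recovery times, with bars of 1 SE and filled symbols where the limma adjusted p was under 0.05. Mt2A at 2.01 and Hmox1 at 0.96 for 600 µg/l carry the filled symbols, and Alas2 stands on the negative side at both levels.

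Blvrb (1392539_at, type B) encodes biliverdin reductase B, which reduces flavins and some isomers of biliverdin. At 2 h its signal was 884.0 in sham lungs, 829.9 at 300 µg/l and 844.7 at 600 µg/l. At 6 h it was 907.1 in sham lungs, 1013.8 at 300 µg/l and 857.4 at 600 µg/l. At 20 h it was 581.9 in sham lungs, 864.2 at 300 µg/l and 833.6 at 600 µg/l. The sham array at 20 h stood below the other 8, and otherwise the groups overlapped. The difference from sham was 0.11 (SE 0.14, adjusted p = 0.84, limma) at 600 µg/l and 0.20 (SE 0.14, adjusted p = 0.99) at 300 µg/l. Without the type B sham array at 2 h it was 0.23 (adjusted p = 0.70) at 600 µg/l, and without the sham array at 20 h it was -0.0605.

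Iron uptake was represented by a pair of Tfrc probe sets on type A, which did not move alike (r = -0.31 over 9 arrays). The brighter, 1388750_at, had 863.4, 840.3 and 864.5 at 2, 6 and 20 h at 600 µg/l, against 821.8, 940.9 and 791.4 in sham lungs. Its 300 µg/l arrays gave 709.2, 946.3 and 940.6. The groups overlapped throughout, and the difference at 600 µg/l from sham was 0.011 (SE 0.11, adjusted p = 0.98, limma).

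The dimmer Tfrc probe set, 1371113_a_at, had 290.0, 272.0 and 330.6 at 2, 6 and 20 h at 600 µg/l, against 249.7, 237.0 and 224.5 in sham lungs. Its 300 µg/l arrays gave 285.8, 258.3 and 205.6. Its 600 µg/l arrays lay above all sham arrays by a small margin, while its 300 µg/l arrays fell on either side of them. The difference at 600 µg/l was 0.27 (SE 0.13, adjusted p = 0.49, limma), so neither Tfrc probe set passed. The probe sets were not tested against each other.

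Alas2 (1367985_at, type A), the erythroid enzyme that condenses glycine and succinyl-CoA, ran the other way. At 2 h its signal was 1266.7 in sham lungs, 1283.9 at 300 µg/l and 1019.3 at 600 µg/l. At 6 h it was 1517.6 in sham lungs, 1089.4 at 300 µg/l and 904.7 at 600 µg/l. At 20 h it was 1595.1 in sham lungs, 1036.6 at 300 µg/l and 762.4 at 600 µg/l. All 600 µg/l arrays lay below all sham arrays and below all 300 µg/l arrays, and Alas2 was the only 1 of 6 member probe sets with no overlap between 600 and 300 µg/l, beside 9.03% of all probe sets.

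Alas2 averaged 896 ± 129 at 600 µg/l, against 1460 ± 172 in sham lungs (SD, n = 3 each). The difference of -0.68 (SE 0.13, adjusted p = 0.055, limma) did not pass at 600 µg/l. It passed without the type A sham array at 2 h (-0.86, adjusted p = 0.016) and without the 2 h conditions (-0.87, adjusted p = 0.044), and at the same -0.68 with p-values adjusted within each array type (adjusted p = 0.031) or with recovery time left out of the fit (adjusted p = 0.034). The 300 µg/l difference was -0.35 (SE 0.13, adjusted p = 0.79). In whole lung, fewer cells of a type and less RNA per cell cannot be told apart.

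Genes of red cells were set beside Alas2. Of 19 erythroid markers 5 were measured, and 0 of these 5 passed at 600 µg/l against sham, with a median of -0.20 beside -0.0075 for all probe sets. Their summed signal, mostly the globin gene Hbb, was 17582.7 to 20297.6 in sham lungs, 16063.3 to 18929.9 at 300 µg/l and 16132.3 to 16394.3 at 600 µg/l. The 600 µg/l sums lay below all sham sums, as for Alas2, and their part in the Alas2 values was not tested. Hbb stood at -0.20 (adjusted p = 0.35), Slc4a1, the red cell anion exchanger, at -0.23 (adjusted p = 0.61) and Bpgm, the enzyme of 2,3-bisphosphoglycerate, at -1.20 (adjusted p = 0.061, limma). Epor, the erythropoietin receptor gene, stood at -0.16 (adjusted p = 0.86), and Ank1, for the red cell ankyrin, stood on the other side of 0 at 0.39 (SE 0.34, adjusted p = 0.76). Naming all 5 was decided after their values were seen.

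Bpgm (1383551_at, type B) had 205.8, 588.7 and 387.8 at 2, 6 and 20 h at 600 µg/l, against 848.9, 829.3 and 1057.7 in sham lungs. Its 600 µg/l arrays lay below all sham arrays. The signal of 205.8 was below the filter signal of 238.7 on type B, so the size of the difference is uncertain. Without the type B sham array at 2 h the difference was -1.07 (adjusted p = 0.17), and without the type B 600 µg/l array at 6 h it was -1.57 and passed (adjusted p = 0.0042, limma).

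Fech, which inserts iron into the porphyrin ring at the end of heme synthesis, had the smallest p after Alas2 among the heme synthesis genes. Fech had 397.4, 436.1 and 409.9 at 2, 6 and 20 h at 600 µg/l, against 504.8, 621.7 and 740.3 in sham lungs. Its 300 µg/l arrays gave 465.5, 461.4 and 521.0. The 600 µg/l arrays lay below all sham arrays, and the difference was -0.52 (SE 0.11, adjusted p = 0.080, limma). Alas1, the form of the first enzyme used outside red cells, stood at 0.42 (SE 0.13, adjusted p = 0.26), on the other side of 0 from Alas2. Of 11 heme synthesis genes tested, 0 passed at 600 µg/l and 5 were positive, with a median of -0.010 beside -0.0075 for all probe sets.

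**Figure D3:**
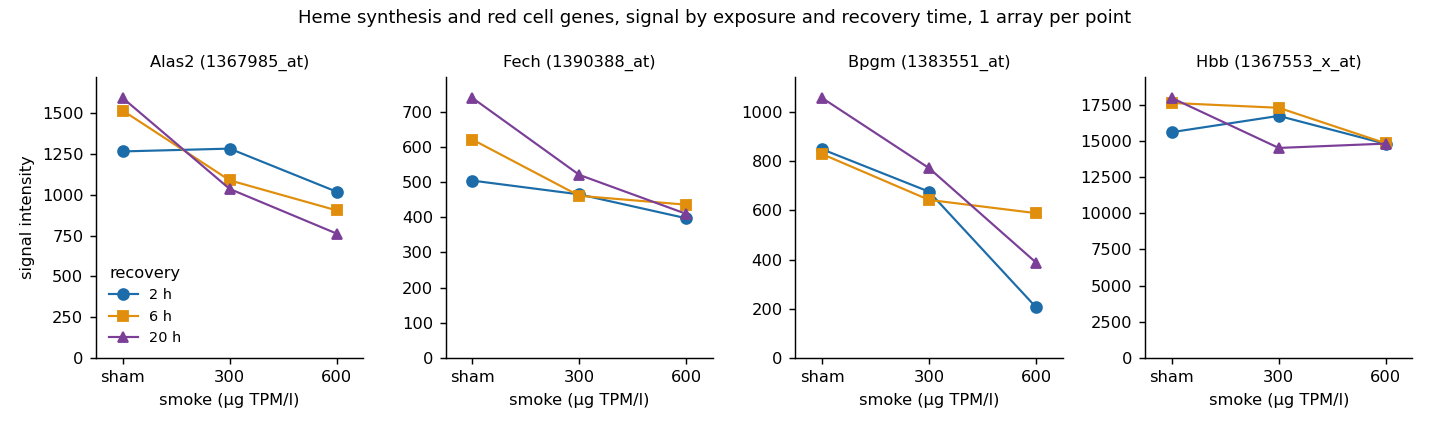
Signal intensity (y axis, linear from 0) of Alas2 and Fech, enzymes of heme synthesis, and of Bpgm and Hbb, expressed in red cells, against exposure (x axis, sham, 300 and 600 µg TPM/l), with 1 array per point and lines joining each recovery time. All 600 µg/l points lie below all sham points for the 4 genes, by a narrow margin for Hbb, whose arrays run between 14525.3 and 17987.6. Of all probe sets, 14.4% had no overlap between 600 µg/l and sham in either direction. The other measured red cell markers, Slc4a1, Epor and Ank1, are not shown, and their 600 µg/l arrays overlapped sham.

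Recovery time was compared over the 3 exposures. As dissection followed the final session by set hours, recovery time and time of day cannot be told apart. Mt2A and Hmox1 stood lower later in recovery, and neither passed. Sham lungs took part in this. Their Mt2A signal was 138.9 at 20 h, below the filter signal of 183.8 on type A, against 579.2 at 2 h. Their Hmox1 signal was 316.3 at 20 h against 455.2 at 2 h. At 20 h against 2 h, Mt2A differed by -1.16 (SE 0.21, adjusted p = 0.089, limma) and Hmox1 by -0.76 (SE 0.16, adjusted p = 0.15). At 6 h against 2 h, Mt2A differed by -0.59 and Hmox1 by -0.50 (adjusted p = 0.36 and 0.31), and at 20 h against 6 h Mt2A differed by -0.58 (adjusted p = 1). Alas2 differed by -0.12 at 20 h against 2 h (adjusted p = 0.77). Of 6 member probe sets 0 were called at 6 h against 2 h, beside 0.0153% of all, and 0 at 20 h against 2 h, beside 0.0509%. At 20 h against 6 h, 0 were called beside 0% of all, with 881 probe sets at an unadjusted p under 0.05 in limma.

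Set against the sham array of its own recovery time, Mt2A was higher on all 6 smoke arrays. At 600 µg/l the Mt2A difference was 1.87 at 2 h, 1.39 at 6 h and 2.79 at 20 h, and at 300 µg/l it was 1.22, 1.06 and 2.02. As ratios of signal, 600 µg/l over sham was 3.87 at 2 h, 2.80 at 6 h and 9.03 at 20 h. The ratio at 20 h stands on the sham array at 138.9, the lowest Mt2A signal of the series and below the filter signal of 183.8 on type A, so its size is uncertain. The 600 µg/l signal at 20 h was below that at 2 h. Over both smoke levels, the difference of the smoke effect at 20 h from that at 2 h was 0.86 (SE 0.47, adjusted p = 1) and from that at 6 h 1.18 (SE 0.47, adjusted p = 0.76, limma). The test of this difference takes its spread from 300 against 600 µg/l within a time and holds no measured variation of sham arrays.

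Hmox1 at 600 µg/l exceeded sham by 1.39 at 2 h, 0.56 at 6 h and 0.93 at 20 h, and at 300 µg/l by 0.69, 0.66 and 0.25. Alas2 at 600 µg/l differed from sham by -0.30 at 2 h, -0.72 at 6 h and -1.02 at 20 h, and at 300 µg/l by 0.019, -0.46 and -0.60. The Alas2 series runs downward with recovery at both smoke levels, while its sham arrays run upward. The smoke effect at 20 h against 2 h was -0.67 (SE 0.29, adjusted p = 1) for Alas2 and -0.45 (SE 0.44, adjusted p = 1, limma) for Hmox1. Of 6 member probe sets, 0 were called for the smoke effect at 6 h against 2 h beside 0% of all, 0 at 20 h against 2 h beside 0.0102%, and 0 at 20 h against 6 h beside 0.00509%. Of all probe sets 1231, 678 and 1235 had an unadjusted p under 0.05 in those comparisons.

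**Figure D4:**
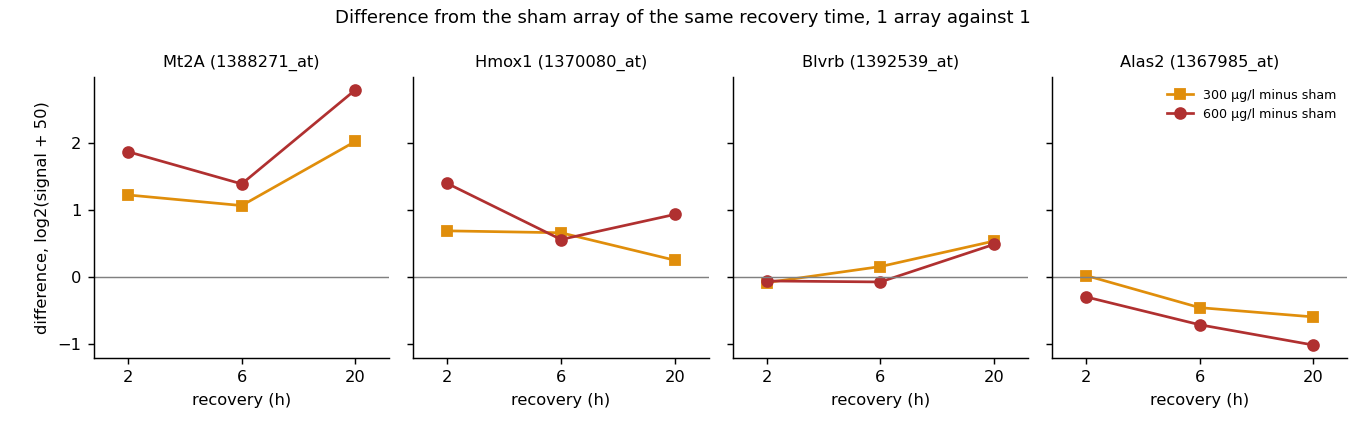
Difference of each smoke array from the sham array of the same recovery time, log2(signal + 50) (y axis), at 2, 6 and 20 h (x axis), for Mt2A, Hmox1, Blvrb and Alas2 at 300 µg/l (squares) and 600 µg/l (circles), 1 array against 1 at each point. Mt2A stays above 1 everywhere and stands at 2.79 at 20 h for 600 µg/l, where the sham signal was below the brightness filter, and Alas2 reaches -1.02 there.

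The wider pathways were read from lists with 1 probe set per gene. Of 18 metal binding and transport genes tested, Mt2A rose at 600 µg/l and 17 did not pass, with a median of 0.057 beside -0.0075 for all probe sets. The zinc importer gene Slc39a8 stood at 0.38 (SE 0.12, adjusted p = 0.27), the zinc exporter gene Slc30a1, another known MTF1 target, at 0.12 (SE 0.14, adjusted p = 0.83, limma) and Mtf1 itself at -0.11 (SE 0.13, adjusted p = 0.82). Of these genes Mt2A was the only 1 past the threshold, also with both smoke levels joined. Mt2A was also the only metallothionein gene tested, so other metallothioneins are not covered here. Slc39a8, Slc30a1 and Mtf1 were chosen for display after their values were seen.

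Of 13 genes of heme degradation, transport and scavenging, 2 rose at 600 µg/l, Hmox1 and Hebp1, and 11 did not pass, with 11 of 13 positive and a median of 0.097. Hebp1 encodes a cytosolic heme-binding protein whose cleaved peptide attracts leukocytes. Hebp1 had 1146.0, 957.8 and 979.9 at 2, 6 and 20 h at 600 µg/l, against 597.2, 544.9 and 651.9 in sham lungs. Its 300 µg/l arrays lay between, at 905.9, 865.1 and 874.1. The groups did not overlap, and the difference at 600 µg/l was 0.73 (SE 0.090, adjusted p = 0.0065, limma), 1.66-fold. The Hebp1 call was lost without the type A sham array at 2 h (0.69, adjusted p = 0.056), without the type A 600 µg/l array at 2 h (0.67, adjusted p = 0.053), without all 2 h conditions (adjusted p = 0.13) and without all 6 h conditions (adjusted p = 0.082). The haptoglobin gene Hp, for the plasma scavenger of free hemoglobin, stood at 0.51 (SE 0.12, adjusted p = 0.14) and Blvra, for biliverdin reductase A, at 0.024 (SE 0.11, adjusted p = 0.96). Hp and Blvra were likewise chosen after their values were seen.

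Of 19 iron uptake, storage, export and regulation genes, Lcn2 rose at 600 µg/l and 18 did not pass, with a median of 0.042. Lcn2 encodes lipocalin 2, which withholds iron from bacteria by binding their siderophores. Lcn2 had 9898.5, 11880.6 and 11934.7 at 2, 6 and 20 h at 600 µg/l, against 3135.2, 2619.7 and 2964.4 in sham lungs. The difference was 1.93 (SE 0.14, adjusted p = 0.00027, limma), and at 300 µg/l 1.41 (SE 0.14, adjusted p = 0.0066). Lcn2 was the only gene of the metal, heme and iron lists called at 300 µg/l. That call was lost when the type A sham array at 2 h (adjusted p = 0.060) or 6 h (adjusted p = 0.059), or the type A 300 µg/l array at 2 h (adjusted p = 0.055) or 6 h (adjusted p = 0.062), was left out, and without all 2 h (adjusted p = 0.085) or 6 h conditions (adjusted p = 0.13).

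Steap4, a metalloreductase that reduces ferric iron and copper, stood at 0.73 (SE 0.13, adjusted p = 0.05 after rounding, limma) and was not past the threshold. Steap4 (type B) had 1097.2, 1457.1 and 1477.2 at 2, 6 and 20 h at 600 µg/l, against 748.1, 717.5 and 902.0 in sham lungs. Without the type B sham array at 2 h it passed at 0.87 (adjusted p = 0.033), and without the type B 300 µg/l array at 2 h it passed with adjusted p = 0.046. Slc11a2, the DMT1 transporter of ferrous iron, stood at 0.49 (SE 0.12, adjusted p = 0.16). The iron exporter gene Slc40a1 stood at 0.077 (SE 0.12, adjusted p = 0.88) and the genes of the iron regulatory proteins, Aco1 and Ireb2, at 0.28 and 0.0047. Steap4, Slc11a2, Slc40a1, Aco1 and Ireb2 were chosen after their values were seen.

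Of 9 iron-sulphur and mitochondrial iron genes, 0 passed at 600 µg/l, with a median of 0.021. The lowest p belonged to Glrx5, a mitochondrial glutaredoxin of cluster transfer, at -0.14 (SE 0.0895, adjusted p = 0.67, limma), and Nfs1, the cysteine desulphurase, at -0.13 (SE 0.0945, adjusted p = 0.70). No gene of the metal, heme synthesis, heme degradation and iron-sulphur lists passed at 300 µg/l.

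**Figure D5:**
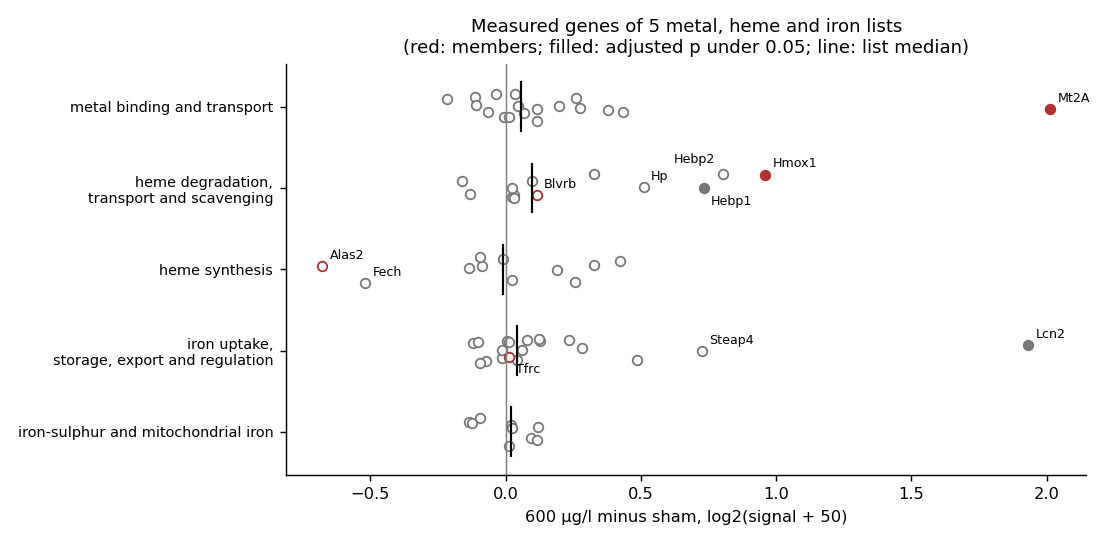
Difference at 600 µg/l from sham, log2(signal + 50) (x axis), for the measured genes of 5 lists (rows), with 1 point per gene spread vertically for visibility, members in red, genes past the threshold filled and the list median as a black line. Mt2A, Hmox1, Hebp1 and Lcn2 are filled, the medians lie between -0.010 and 0.097, and Alas2 and Fech lie farthest to the left.

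Of 8 transcription factors and partners known to act on these genes, 0 passed at 600 µg/l, with a median of -0.0077. Nfe2l2, which encodes NRF2, stood at 0.27 (SE 0.13, adjusted p = 0.53, limma) and Hif1a at -0.11 (SE 0.0715, adjusted p = 0.65). The Nfe2l2 signal at 2, 6 and 20 h was 2312.1, 1706.1 and 1665.2 at 600 µg/l and 2152.0, 1692.3 and 1627.3 at 300 µg/l. In sham lungs it was 1396.8, 1757.6 and 1512.3, so the smoke arrays stood farthest from sham at 2 h. These are RNA levels, and the activity of the factors was not measured.

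Of 11 other NRF2 target genes, Gstp1 rose at 600 µg/l (0.55, SE 0.099, adjusted p = 0.048, limma) and 10 did not pass. All 11 were positive, with a median of 0.43 beside -0.0075 for all probe sets. The Gstp1 call, close to the threshold, was lost when any of 9 single arrays was left out, with adjusted p of 0.0502 to 0.201. At 20 h against 2 h the 11 had a median of -0.41 and 0 passed, and Hmox1 stood at -0.76 in that comparison. Of 10 glucocorticoid-responsive genes other than Mt2A, 0 passed at 600 µg/l and the median was 0.12, with Fkbp5 at 0.67 (SE 0.23, adjusted p = 0.33) and Sgk1 at 0.17 (SE 0.090, adjusted p = 0.58).

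Summed markers of macrophages and neutrophils were higher with exposure, as Mt2A and Hmox1 were. Of 15 macrophage markers 10 were measured, and 6 of these rose at 600 µg/l against sham, with a median of 0.83. Their summed signal was 35654.4 to 38805.8 in sham lungs, 45910.2 to 49149.0 at 300 µg/l and 50953.6 to 56646.9 at 600 µg/l, so the groups did not overlap. Cd163 (-0.16) and Adgre1 (-0.40) were the measured macrophage markers on the negative side, and neither passed. Of 8 neutrophil markers 3 were measured and 1 rose, S100a9, with sums of 1287.0 to 2208.6 in sham lungs, 3081.6 to 4110.1 at 300 µg/l and 3909.1 to 8250.2 at 600 µg/l. S100a9 made up most of the 600 µg/l sums, with 2976.4, 6636.4 and 5161.2 at 2, 6 and 20 h. The others, S100a8 (0.77, adjusted p = 0.4, limma) and Csf3r (0.27, adjusted p = 0.665), did not pass. At 600 µg/l the macrophage sum was 50953.6 at 2 h, 54137.1 at 6 h and 56646.9 at 20 h, and the neutrophil sum 3909.1, 8250.2 and 6351.5. At that level both sums were lowest at 2 h, where Mt2A and Hmox1 were highest. At 300 µg/l, where Mt2A and Hmox1 were also highest at 2 h, the macrophage sum was lowest at 20 h (45910.2) and the neutrophil sum at 6 h (3081.6). Each sum stands on 1 array per type. The part of these cells in the values of Mt2A, Hmox1, Hebp1 and Lcn2 was not tested.

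Among members on type A, log2(signal + 50) of Mt2A and Hmox1 ran together over the 9 arrays (r = 0.89), while Alas2 ran against Mt2A (r = -0.72) and Hmox1 (r = -0.50). These 9 arrays share exposure and recovery time, so the correlations describe these arrays alone. The probe sets of 1 other gene most like Mt2A were those of Slc20a1 (r = 0.96), a phosphate importer, Psat1 (r = 0.95), an enzyme of serine synthesis, and Igsf6 (r = 0.95). Most like Hmox1 were Tubb5 (r = 0.96), a beta tubulin, Vps4a (r = 0.96), an ATPase of membrane scission, and Eif2b3 (r = 0.95), a translation initiation factor subunit. Most like Alas2 were Kcns3 (r = 0.93), a potassium channel subunit, Mkrn1 (r = 0.93), a ubiquitin ligase, and Emid1 (r = 0.92). Blvrb was closest on type B to Tle5, Smyd4 and Farp1 (r = 0.91 to 0.94), and the brighter Tfrc probe set to Paqr7, Hnrnpa1 and Top3b (r = 0.88 to 0.91).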

How the data were processed

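Biotin-labelled cRNA of rat lung was hybridised to 18 arrays, per the labels. The deposited values are signal intensities on a linear scale, made by the authors with MAS5 per the submitters' processing notes, with no version, detection calls or pooling of animals given in the sources used here. Trimmed by 2% at both ends, array means were 500.09 to 500.1, and the authors' scaling was kept.

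Samples were grouped by title. Symbols came from the platform tables, updated through Entrez identifiers (12754 probe sets on A, 7530 on B). Of 15923 probe sets on A, 12789 had 1 symbol, 312 several and 2822 none listed, and on B, of 15333, 7570, 100 and 7663. Control probe sets (57 per type) were left out and 100 present on both types were tested on A. The filter asked for the 40th percentile of signal (183.8 on A, 238.7 on B) on 3 or more of 9 arrays, which kept 9901 probe sets on A and 9737 on B. Models of log2(signal + 50) used limma 3.58.1 (lmFit and trended eBayes, R 4.3.3), with exposure and time without interaction (4 residual degrees of freedom) per type, and in a second model smoke with time and the interaction (3 residual degrees of freedom). Tests were two-sided, adjusted over both types together, and the fit was tested on simulated data. Folds are on that scale and smaller than ratios of signal for dim probe sets.

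Members, lists and alternatives were chosen with earlier results of these data known. Named were all members, for each list up to 4 genes past the threshold at 600 µg/l, or else the 2 with the smallest p, and the 3 probe sets most correlated with each member. For a gene in a list the brightest probe set was used. Alternatives were quantile normalization, median scaling, pseudocounts of 12.5 and 200, adjustment within each type, no filter, no intensity trend, a filter at the 60th percentile, fits of the compared groups alone, exposure without time or the reverse, each recovery time left out, and each of the 18 arrays left out. For differences of smoke effects between times, 14 arrays were left out in turn, as the sham arrays of the compared times cannot be spared.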

Additional observations from a re-analysis of the deposited data

Results flagged for a closer look

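The smoke arrays of Blvrb (1392539_at) lay on opposite sides of the sham array at the ends of recovery, though by little at 2 h. At 2 h both smoke arrays lay below sham, by -0.062 at 600 µg/l and -0.086 at 300 µg/l on the log2(signal + 50) scale. At 20 h both lay above it, by 0.48 at 600 µg/l and 0.53 at 300 µg/l. The difference of the smoke effect at 20 h from that at 2 h was 0.58 (SE 0.25, adjusted p = 1 over all probe sets, limma), so it did not pass. It was 0.49 to 0.64 over 23 alternatives. None of these left out the sham array at 2 h or at 20 h, since the difference cannot be fitted without them. The difference rests on those single sham arrays of type B. That at 20 h, at 581.9, was the lowest Blvrb signal, and that at 2 h deviated together with the 300 µg/l array at 2 h.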

How the results depend on the processing

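The call of Mt2A at 600 µg/l against sham held under 31 of 31 alternatives (1.63 to 2.33, adjusted p 0.00061 to 0.046, limma), that of Lcn2 under 31 of 31, Hebp1 under 27, Hmox1 under 19 (0.74 to 1.19, adjusted p 0.01 to 0.28) and Gstp1 under 15. Alas2 was called under 4 of 31 (-0.87 to -0.51, adjusted p 0.016 to 0.32), Mt2A at 300 µg/l under 8 of 31 (1.09 to 1.68, adjusted p 0.022 to 0.58).

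Of member probe sets called at 600 µg/l (2 of 6), 1 was left with no filter on dim probe sets, with no intensity trend, with only the 2 exposures compared and without 20 h, and 1 to 2 with single arrays left out. It was 3 with adjustment within each type, where Alas2 was added, and stayed 2 with no other factor, without 2 h and without the type A sham array at 2 h, where Alas2 was called in place of Hmox1. At 300 µg/l (0 of 6), 1 was called under median scaling, 4 times the pseudocount, only the 2 exposures compared, adjustment within each type and without 20 h, and 0 to 1 with single arrays left out. For both smoke levels (1 of 6), 2 were called with adjustment within each type, 0 with no other factor and 0 without 2 h, and 1 to 2 with single arrays left out. At 20 h against 2 h (0 of 6), 1 was called with 4 times the pseudocount. Calls over all probe sets at 600 µg/l ran between 35 with no filter and 143 with adjustment within each type, against 101. The causes of these moves were not tested.

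Of 47 single-gene results 6 changed sign under some alternative, 0 of them called. The brighter Tfrc probe set at 600 µg/l was -0.0171 without 2 h and -0.0436 without 20 h, and at 300 µg/l -0.0958 without 20 h, and Blvrb at 600 µg/l was -0.0695 without 20 h. With single arrays left out, the brighter Tfrc probe set ran from -0.0715 to 0.092 at 600 µg/l and from -0.0685 to 0.136 at 300 µg/l, the dimmer from -0.0226 to 0.183 at 300 µg/l, Blvrb at 600 µg/l from -0.0605 to 0.231, Alas2 at 6 h against 2 h from -0.232 to 0.051, and the Mt2A smoke effect at 6 h against 2 h from -0.642 to 0.0033.

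No paired analysis by replicate number was possible because the labels give no replicate numbers, and recovery time was a term of the fits above except where no other factor is stated. Each exposure stands on 3 arrays per type, and differences of smoke effects between times stand on 1 sham array at each. Probe sets near the filter have little signal over background, and their differences are understated on this scale. Ftl1 and Fth1 were not analysed here.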
